A study of Homo sapiens with 15 samples.

Results

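Amino acid transporters of 7 solute carrier families (SLC1, SLC3, SLC6, SLC7, SLC36, SLC38 and SLC43) were followed in IHA cells, immortalized human astrocytes of fetal origin made with SV40 and kept as an established line. Doxycycline was given at 1 µg/ml to turn on a mutant form of the metabolic enzyme IDH1 in them. The genes were taken by symbol alone, as every gene of these families with a row in either of 2 tables of counts, which gave 33 of 16324 genes. All 33 had a row in the day 7 table and 32 in the day 3 table, where SLC38A9 had none. Bulk MARS-seq, a 3′-end RNA-seq method with unique molecular identifiers (UMIs), made each count a molecule, so levels are given in CPM, UMIs scaled to a common library size, without correction for transcript length. The 15 libraries were 6 untreated, 4 at day 3 and 5 at day 7 of doxycycline. The titles carry a tag, b2 or b1, and untreated libraries were 3 of each, day 3 libraries all b2, and day 7 libraries 4 of b2 and 1 of b1. The cells grew in a medium with added serum, L-glutamine and EGF. The series' design text names the induced form as R132H, and the genotype field gives IDH1 as wild type throughout, for day 7 and untreated libraries alike.

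Amino acid transporters move their substrates across the plasma membrane or out of lysosomes, and many work as exchangers that give up one amino acid to take in another. SLC3A2 (CD98 heavy chain) is the shared partner that carries several SLC7 light chains to the cell surface, among them SLC7A5 (LAT1, for large neutral amino acids) and SLC7A11 (xCT, which takes in cystine for glutamate). In astrocytes the family is best known for glutamate uptake by SLC1A2 and SLC1A3 and for the release of glutamine by SLC38 carriers. Several transporter genes are also textbook targets of ATF4, the transcription factor of the amino acid response, and SLC7A11 of NRF2.

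Cells with doxycycline but no inducible gene were not among the samples, and the labels give the untreated cells no day, so an effect of the drug or of time in culture cannot be told apart from that of the mutant enzyme. The labels do not say that libraries of a group were separate cultures, and p-values then measure only the spread between these libraries. Libraries of the day 7 table held 2573290 to 5567651 UMIs each, and the day 3 table had 1816599 to 4656705 a library. IDH1 itself stood at 28.8 to 38.5 CPM in day 7 b2 and 26.5 to 35.2 CPM in untreated b2 libraries, and at 43.3 CPM in day 7 b1 and 34.9 to 36.5 CPM in untreated b1. In the day 3 table it stood at 28.1 to 38.3 CPM untreated, 35.1 to 44.6 CPM at day 3 and 30.2 to 43.2 CPM at day 7. The groups overlapped but for b1, and a 3′ tag need not count the induced transcript. The astrocyte markers GFAP, AQP4, ALDH1L1 and SLC1A2 had no row in the tables used here, S100B had at most 8 UMIs in any library, and VIM (mean 7230 CPM), CD44, SOX9 and GJA1 were present. At day 7 SOX9 (log2 change 0.64 ± 0.15) and CD44 (0.41 ± 0.07) were higher among the 5 astrocyte markers tested (SE; edgeR adjusted p = 0.00504 and 0.000492). Among 5 fibroblast and pericyte markers, COL1A1, COL1A2 and PDGFRB were present. COL1A2 was lower at day 7 (-1.84 ± 0.08, SE; edgeR adjusted p = 3.9e-14). The summed level of these 3 was 283 to 378 CPM in day 7 b2 and 566 to 623 CPM in untreated b2, and 951 CPM in day 7 b1 and 943 to 1017 CPM in untreated b1. In the day 3 table it was 625 to 699.6 CPM untreated, 502.5 to 535 CPM at day 3 and 303 to 425.5 CPM at day 7. DCN and LUM had no row. Of 5 microglial markers CSF1R alone had a row, at 1 to 14 UMIs a library in the day 7 table, and was higher at day 7 (1.52 ± 0.43, SE; edgeR adjusted p = 0.0165). Of 4 oligodendrocyte markers MBP alone had one, and was lower at day 7 (-0.43 ± 0.14, SE; edgeR adjusted p = 0.0357). Among 6 neuronal markers TUBB3, with a row in the day 3 table, was higher at day 3 (0.72 ± 0.16, SE; edgeR adjusted p = 0.0297). The 4 neuronal markers listed there summed to 78.8 to 92.6 CPM untreated, 120.4 to 137 CPM at day 3 and 108 to 170.4 CPM at day 7. The defining markers RBFOX3, PTPRC, AIF1, MOG and SOX10 had no row, and the part of these cell type markers in the results below was not tested. In bulk RNA, fewer cells of a kind and less RNA per cell cannot be told apart.

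Transporter levels differed widely between the genes. SLC3A2 had the highest mean level of the 33 in the day 7 table (158 CPM as the mean of the 4 group means), followed by SLC1A5 (127 CPM), a neutral amino acid exchanger known for glutamine uptake, SLC43A3 (124 CPM), an equilibrative nucleobase transporter despite its family name, and SLC7A5 (94.5 CPM). SLC6A8, the creatine transporter, averaged 92.7 CPM, SLC38A10 88.6 CPM, SLC7A1, the main cationic amino acid transporter, 65.3 CPM, SLC38A7, a lysosomal glutamine carrier, 44.6 CPM, SLC38A2 32.99 CPM and SLC38A1 29.2 CPM. At the low end SLC7A7 averaged 0.668 CPM and SLC7A14 1.07 CPM, and neither passed the filter on low counts. The filter left 31 members in the day 7 table and 22 in the day 3 table. Together the 33 genes took 0.0855% to 0.0896% of UMIs in day 7 b2 and 0.0992% to 0.104% in untreated b2 libraries, and 0.105% in day 7 b1 and 0.0990% to 0.102% in untreated b1. In b2 every day 7 library thus lay below every untreated one, while the single day 7 library of b1 lay above the untreated b1 ones. From 1 library a difference of direction between the tags is not shown.

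**Figure D1:**
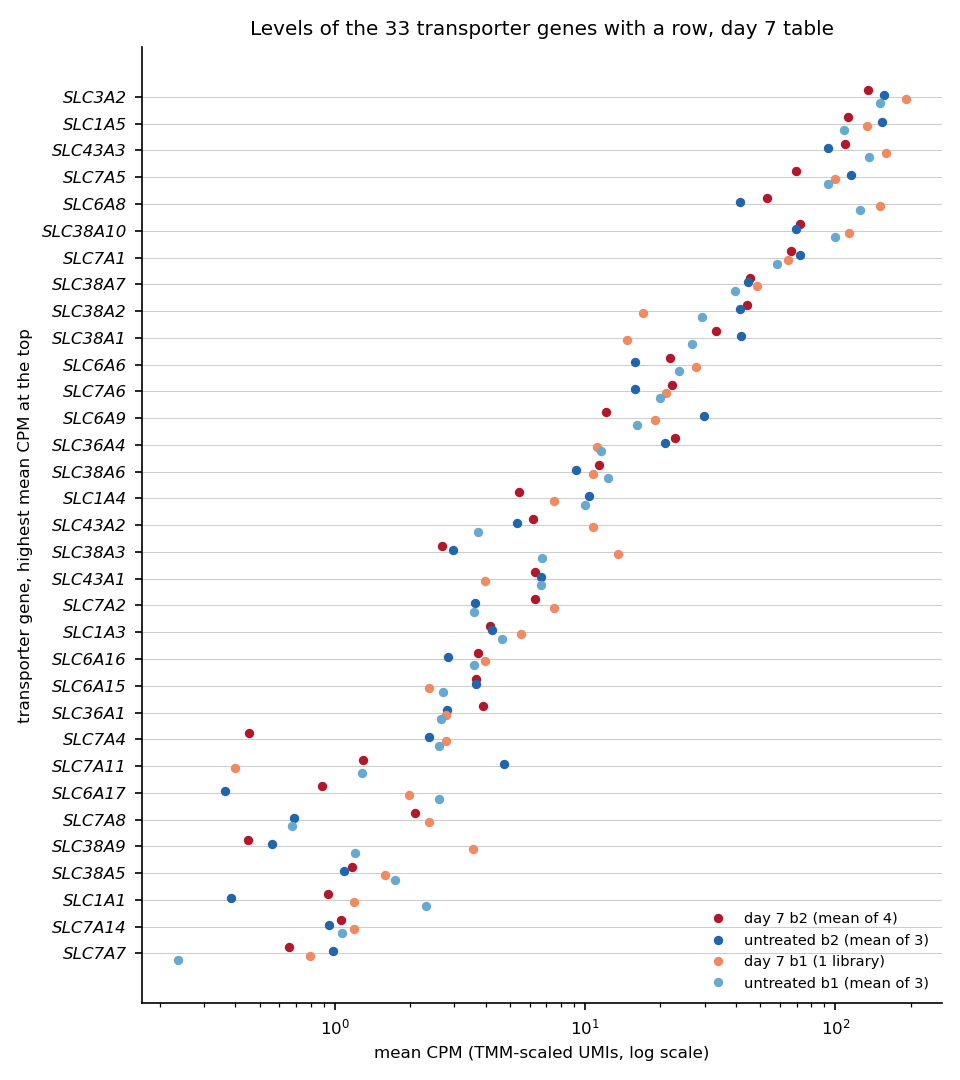
Mean level of each of the 33 transporter genes in the day 7 table, in CPM on a log axis, with 1 point per group (day 7 b2, untreated b2, day 7 b1, untreated b1) and genes in order of mean level. SLC3A2, SLC1A5, SLC43A3 and SLC7A5 stand at the top, and SLC7A7, which is not tested, at the bottom.

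By family, 4 of 7 known SLC1 genes had a row, 1 of 2 SLC3 genes, 6 of 19 SLC6 genes, 9 of 13 SLC7 genes, 2 of 4 SLC36 genes, 8 of 11 SLC38 genes and 3 of 3 SLC43 genes. Among the symbols without a row were SLC1A2, SLC1A6, SLC1A7, SLC3A1, SLC6A2 to SLC6A5, SLC6A7, SLC6A11 to SLC6A14, SLC6A18 to SLC6A20, SLC7A3, SLC7A9, SLC7A10, SLC7A13, SLC36A2, SLC36A3, SLC38A4, SLC38A8 and SLC38A11. Both tables list only genes with at least 6 UMIs in some library. SLC1A3 (GLAST), the glutamate transporter of astrocytes that did have a row, was low. It had 4.30, 2.89, 5.61 and 3.79 CPM in day 7 b2, against 6.04, 2.37 and 4.30 CPM in untreated b2, and 5.56 CPM in day 7 b1, against 3.90, 5.04 and 5.07 CPM in untreated b1. In b2 the day 7 and untreated values overlapped, and its log2 change at day 7 was 0.11 ± 0.26 (SE; edgeR adjusted p = 0.820).

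Day 7 against no doxycycline is the comparison the series names, and transporters were called in both directions. edgeR's quasi-likelihood test with the tag as a term called 5 of 31 tested members higher (16.1%, where 8.14% of all 13371 tested genes were higher) and 4 lower (12.9%, where 6.48% of all genes were lower) at a Benjamini-Hochberg adjusted p under 0.05. The members' median log2 change was 0.10, and that of all genes -0.02. The genes called lower were SLC7A11, SLC1A4, SLC6A9 and SLC38A1, and those called higher SLC7A8, SLC7A2, SLC6A8, SLC6A6 and SLC7A6. Of these, SLC7A11 and SLC7A8 passed the filter only through a group where they were high, so both counts partly follow from the filter. Scaled by library size alone, 2 members were higher and 6 lower, and of all genes 662 were higher and 1421 lower, against 1088 and 866 with the scaling used here. Without untreated b2 library 1 the count was 1 higher and 4 lower, and without the tag as a term 1 higher and 1 lower.

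Among the carriers called lower, SLC7A11, the cystine and glutamate exchanger, had the largest fall. It had 2.15, 1.45, 0.701 and 0.891 CPM in the day 7 b2 libraries, against 4.59, 3.83 and 5.74 CPM in untreated b2. In b1 it had 0.397 CPM in the day 7 library, against 1.70, 1.94 and 0.221 CPM in the untreated libraries. All day 7 b2 libraries lay below all untreated b2 libraries, while in b1 the groups overlapped at 1 UMI in the day 7 library and 1 to 7 UMIs in the untreated ones. SLC7A11 (chromosome 4, 138164097 to 138242349, minus strand, GRCh38) changed by -1.85 ± 0.41 on the log2 scale (SE; edgeR adjusted p = 0.00347). It passed the filter through the 3 untreated b2 libraries alone, so a gene this low could be tested only because it was higher there. It also overlaps the antisense gene SLC7A11-AS1 near its 3′ end, and the sources used here do not say whether the counting used strand.

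SLC1A4 (chromosome 2, 64988477 to 65023865, plus strand, GRCh38), or ASCT1, which exchanges alanine, serine, cysteine and threonine, was lower in both tags. It had 5.92, 4.05, 5.78 and 6.01 CPM in day 7 b2, against 9.91, 11.5 and 9.69 CPM in untreated b2, and 7.54 CPM in day 7 b1, against 9.01, 9.69 and 11.3 CPM in untreated b1. The day 7 and untreated libraries did not overlap in either tag, but b1 has 1 day 7 library, with 19 UMIs of this gene. The log2 change was -0.92 within b2 and -0.41 within b1. Over both tags SLC1A4 changed by -0.80 ± 0.18 (SE, edgeR adjusted p = 0.00373), and the call held in all 21 alternative settings tried.

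SLC6A9 (chromosome 1, 43991500 to 44031467, minus strand, GRCh38), or GLYT1, a glycine transporter, had 13.7, 12.7, 11.6 and 10.2 CPM in day 7 b2, against 28.5, 28.5 and 32.6 CPM in untreated b2. In b1 it had 19.0 CPM at day 7, against 16.3, 15.5 and 16.3 CPM untreated. The day 7 libraries were thus lower than all untreated ones in b2, while the single day 7 library of b1 lay above the untreated ones. The log2 change was -1.31 within b2 and only 0.24 within b1, so a rise in b1 is not shown from 1 library. The log2 change of SLC6A9 over both tags, -0.93 ± 0.20 (SE; edgeR adjusted p = 0.00484), averages these unlike values. CCDC24 lies on the other strand at its 3′ end. SLC38A1 (chromosome 12, 46183063 to 46270017, minus strand, GRCh38), or SNAT1, a sodium-coupled glutamine carrier, had 28.0, 37.3, 37.9 and 30.1 CPM in day 7 b2, against 40.6, 45.6 and 40.2 CPM in untreated b2, and 14.7 CPM in day 7 b1, against 26.3, 26.4 and 27.6 CPM in untreated b1. Its groups did not overlap in either tag, but b1 has 1 day 7 library. Its log2 change was -0.44 ± 0.11 (SE; edgeR adjusted p = 0.0108), and with the b2 counts of the day 3 table it missed the threshold (-0.34, edgeR adjusted p = 0.0812).

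**Figure D2:**
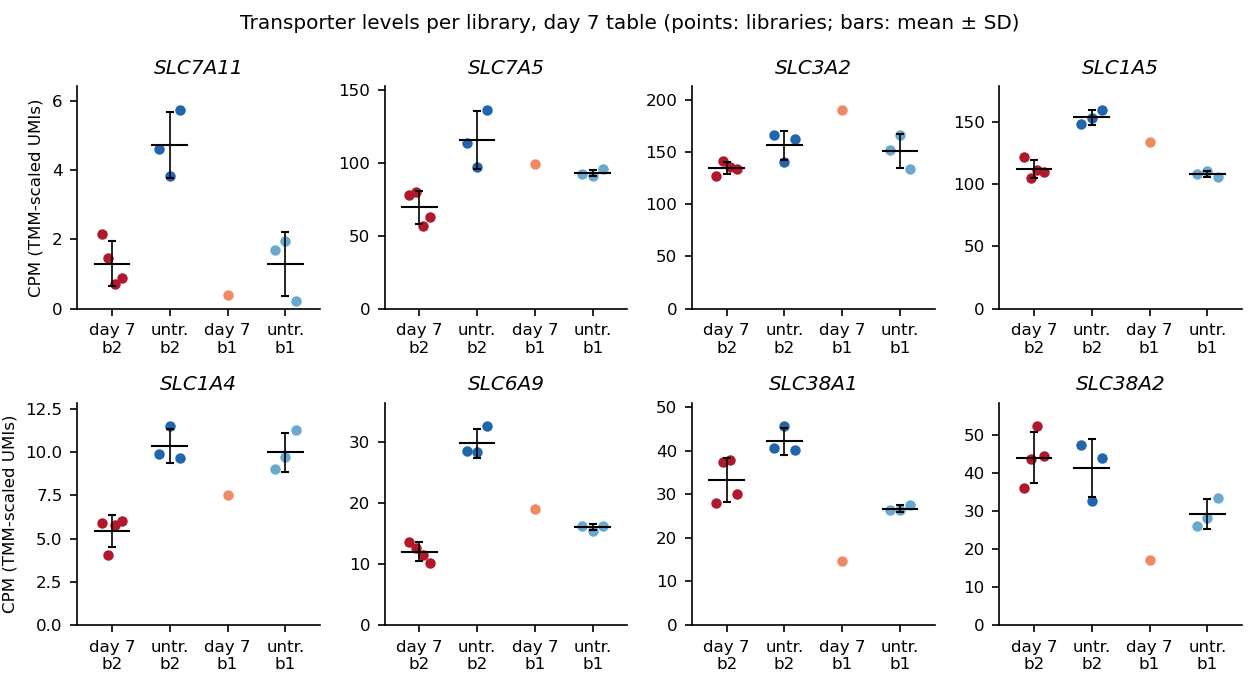
CPM per library in the day 7 table for 8 transporter genes, with 1 point per library and black bars for mean ± SD, in the order day 7 b2 (4), untreated b2 (3), day 7 b1 (1) and untreated b1 (3). SLC1A4 and SLC38A1 are lower at day 7 in both tags, while the day 7 library of b1 lies above untreated b1 for SLC6A9, SLC1A5 and SLC3A2. In b2, SLC6A9 and SLC1A5 are lower in every day 7 library and SLC3A2 overlaps.

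The promoters of the transporter genes were searched for 2 short motifs, TGATGNAA, the core that ATF4 and its C/EBP partners bind, and TGACNNNGC, the core of the antioxidant response element. RefSeq windows on GRCh38.p14, each of 250 bases before to 50 after a transcript's start, were found for 26 of the 33 genes, 47 windows in all. SLC7A2, SLC7A4, SLC7A11, SLC6A6, SLC6A15, SLC38A3 and SLC43A3 had no window, so neither motif was searched for in these genes. Read on both strands, TGATGNAA was in 6 of the 47 windows (12.8%, and 3.62% of 35116 windows of all genes), those of SLC1A3, SLC1A4, SLC1A5, SLC3A2, SLC7A1 and SLC38A1. TGACNNNGC was in 7 windows (14.9%, and 13.3% of all), and no capital stretch below overlaps it. The windows below are those with TGATGNAA of genes called in at least 1 comparison, the first 4 in order of day 7 p, shown so that the match can be seen in its place, with TGATGNAA or its reverse complement in capitals. They are chr2:64989149-64989448 (plus strand) for SLC1A4, chr12:46266467-46266766 (minus) for SLC38A1, chr19:46784765-46785064 (minus) for SLC1A5 and chr13:29595639-29595938 (minus) for SLC7A1. Those of SLC1A4, SLC38A1 and SLC1A5 belong to starts that lie inside the annotated gene. Each of these genes also had a window at another start without TGATGNAA, and which start the cells use was not tested.
SLC1A4: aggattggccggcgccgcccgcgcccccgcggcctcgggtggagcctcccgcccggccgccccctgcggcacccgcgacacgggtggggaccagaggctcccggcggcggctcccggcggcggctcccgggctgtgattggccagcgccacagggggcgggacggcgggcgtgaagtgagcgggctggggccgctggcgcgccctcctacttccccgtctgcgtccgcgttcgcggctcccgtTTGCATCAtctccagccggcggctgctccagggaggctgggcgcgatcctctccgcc
SLC38A1: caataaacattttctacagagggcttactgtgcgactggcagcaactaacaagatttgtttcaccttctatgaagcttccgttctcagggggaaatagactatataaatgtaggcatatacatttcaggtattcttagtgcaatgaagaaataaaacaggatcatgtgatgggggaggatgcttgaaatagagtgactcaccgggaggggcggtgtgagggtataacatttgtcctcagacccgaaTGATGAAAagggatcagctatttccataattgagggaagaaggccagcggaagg
SLC1A5: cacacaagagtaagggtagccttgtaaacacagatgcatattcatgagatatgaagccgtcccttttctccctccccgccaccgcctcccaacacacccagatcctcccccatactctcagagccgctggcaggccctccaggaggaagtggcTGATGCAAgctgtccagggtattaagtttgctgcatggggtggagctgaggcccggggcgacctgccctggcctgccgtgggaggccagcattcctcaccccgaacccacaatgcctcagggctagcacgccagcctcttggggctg
SLC7A1: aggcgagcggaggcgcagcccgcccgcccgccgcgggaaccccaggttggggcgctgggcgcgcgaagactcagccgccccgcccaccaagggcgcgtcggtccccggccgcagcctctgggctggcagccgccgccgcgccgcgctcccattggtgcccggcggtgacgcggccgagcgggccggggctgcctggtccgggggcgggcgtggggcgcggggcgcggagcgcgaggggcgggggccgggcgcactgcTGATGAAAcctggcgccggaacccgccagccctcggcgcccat
The match lies 7 bases before to 1 base after the start in SLC1A4, on the opposite strand, and 4 bases before to 4 after it in SLC38A1. It lies 97 to 90 bases before the start in SLC1A5 and 8 to 15 bases after it in SLC7A1. A match describes these letters and not a bound site. Of these 4 genes, SLC1A4 and SLC38A1 were called lower at day 7, SLC1A5 and SLC7A1 were not called there, and SLC1A5 was called lower at day 3.

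Of the 5 members called higher at day 7, SLC7A8 (chromosome 14, 23125295 to 23183674, minus strand, GRCh38), or LAT2, a light chain for neutral amino acids, had the largest change and the lowest level. It had 2.69, 1.45, 1.75 and 2.45 CPM in day 7 b2, against 0.967, 0.730 and 0.359 CPM in untreated b2. In b1 it had 2.38 CPM at day 7, against 0.974, 0.388 and 0.662 CPM untreated. All 5 day 7 libraries were above all 6 untreated ones, on 5 to 11 UMIs each in day 7 b2 and 1 to 4 in untreated b2. The log2 change was 1.55 ± 0.43 (SE; edgeR adjusted p = 0.0156), and DESeq2 gave it no adjusted p. It passed the filter through 1 day 7 b2 library alone, so it could be tested only because it was high there.

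SLC7A2 (CAT2), an inducible cationic amino acid transporter, had 7.80, 7.23, 5.43 and 4.68 CPM in day 7 b2, against 2.18, 4.74 and 3.95 CPM in untreated b2, and 7.54 CPM in day 7 b1, against 2.19, 3.49 and 5.07 CPM in untreated b1. In b2 the lowest day 7 library lay just under the highest untreated one, and in b1 the day 7 library lay above all. Its log2 change was 0.83 ± 0.26 (SE; edgeR adjusted p = 0.0307), and it was lost without the day 7 b1 library, day 7 b2 libraries 17 or 18 or untreated b2 library 1. SLC6A8, the creatine transporter, had 57.0, 53.5, 46.3 and 56.1 CPM in day 7 b2, against 33.1, 44.5 and 47.0 CPM in untreated b2, and 150.4 CPM in day 7 b1, against 135, 117 and 126 CPM in untreated b1. Its b2 groups overlapped and its levels in b1 were above all those in b2. The log2 change was 0.32 ± 0.09 (SE; edgeR adjusted p = 0.0224), and the call was lost without untreated b2 library 1 and with scaling by library size alone. SLC6A8 has near-identical copies elsewhere in the genome, so its count is uncertain.

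SLC6A6, the taurine transporter, had 21.0, 23.1, 20.9 and 22.3 CPM in day 7 b2, against 16.9, 15.3 and 15.4 CPM in untreated b2, and 27.8 CPM in day 7 b1, against 25.6, 19.0 and 26.5 CPM in untreated b1. SLC7A6 (y+LAT2), a light chain for cationic and neutral amino acids, had 23.7, 18.2, 23.8 and 23.2 CPM in day 7 b2, against 17.2, 15.9 and 14.3 CPM in untreated b2, and 21.0 CPM in day 7 b1, against 19.7, 19.4 and 20.7 CPM in untreated b1. For both genes every day 7 library was above every untreated library of its tag in these scaled CPM. In b1 this rests on 1 day 7 library, whose scaling factor was the lowest of all (0.911). The log2 changes within b1 were only 0.20 for SLC6A6 and 0.07 for SLC7A6. Over both tags the log2 changes were 0.38 ± 0.12 for SLC6A6 and 0.38 ± 0.13 for SLC7A6 (SE, edgeR adjusted p = 0.0381 and 0.0476), near the threshold. SLC6A6 lost its call without day 7 b2 libraries 18 or 20, untreated b1 library 2 or any untreated b2 library. SLC7A6 lost it without day 7 b2 libraries 17, 19 or 20, untreated b1 libraries 1 or 2 or any untreated b2 library, and neither was called by DESeq2 or with scaling by library size alone. GRIP2 and SLC7A6OS lie on the opposite strand at the 3′ ends of SLC6A6 and SLC7A6.

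**Figure D3:**
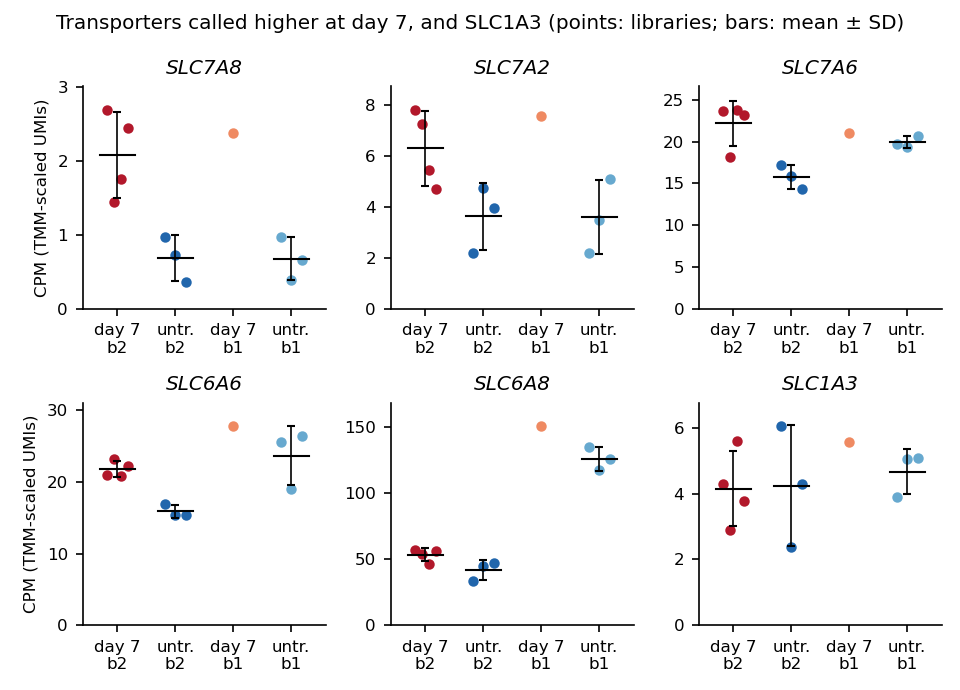
CPM per library in the day 7 table for the 5 transporter genes called higher at day 7 and for SLC1A3, with 1 point per library and black bars for mean ± SD, in the order day 7 b2, untreated b2, day 7 b1, untreated b1. The 5 day 7 libraries of SLC7A8 lie above the 6 untreated ones, and SLC6A8 stands higher in b1 than in b2 whatever the treatment.

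At day 3, measured in b2 alone, the SLC3A2 heavy chain and the exchangers SLC7A5, SLC7A11 and SLC1A5 were lower, together with the glutamine carrier SLC38A1. The untreated b2 libraries are also part of the day 7 comparison. edgeR called 5 of 22 tested members lower (22.7%, where 1.67% of all 10586 tested genes were lower) and 0 higher (where 1.84% of all genes were higher). SLC7A11 counts among the 5 though it passed the filter only through the untreated libraries, where it was high. Scaled by library size alone, 129 genes were higher and 240 lower at day 3, against 195 and 177 with the scaling used here. Among the members 2 were higher at an unadjusted p under 0.05, and DESeq2 and limma-voom also called 5 lower and 0 higher. The members' median log2 change was 0.07 and that of all genes 0.00497.

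SLC1A5 had 184, 191 and 199 CPM in the untreated b2 libraries of the day 3 table, 147, 142, 141 and 126 CPM at day 3, and 151, 129.5, 139.6 and 134 CPM at day 7. SLC3A2 had 204, 172 and 199 CPM untreated, 135, 144, 149.5 and 137 CPM at day 3, and 153, 173, 165 and 156 CPM at day 7. SLC7A5 had 145, 121 and 168 CPM untreated, 83.4, 72.4, 99.99 and 83.3 CPM at day 3, and 95.1, 96.6, 69.8 and 77.4 CPM at day 7. For these 3 genes every day 3 library lay below every untreated library, and for SLC1A5 and SLC7A5 every day 7 library did too, while SLC3A2 overlapped at day 7. At day 3 SLC1A5 (chromosome 19, 46774883 to 46788594, minus strand, GRCh38) changed by -0.47 ± 0.08 on the log2 scale (SE; edgeR adjusted p = 0.000407). SLC3A2 (chromosome 11, 62856102 to 62888875, plus strand, GRCh38) changed by -0.43 ± 0.08 (edgeR adjusted p = 0.0011) and SLC7A5 (chromosome 16, 87830023 to 87869488, minus strand, GRCh38) by -0.77 ± 0.13 (edgeR adjusted p = 0.00285). Each of these calls held in all 17 alternative settings tried. A pseudogene of SLC7A5, SLC7A5P2, had at most 20 UMIs in a library.

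SLC38A1 had 32.7, 35.6 and 32.6 CPM untreated, 24.8, 22.3, 23.0 and 16.2 CPM at day 3, and 21.7, 29.2, 29.1 and 26.1 CPM at day 7. SLC7A11 had 4.46, 4.23 and 6.09 CPM untreated, 2.25, 1.46, 0.450 and 0 CPM at day 3, and 2.27, 1.04, 0.849 and 1.04 CPM at day 7, on 14 to 19 UMIs untreated and 0 to 4 at day 3. Both genes were lower in every day 3 library than in any untreated one. At day 3 SLC38A1 changed by -0.66 ± 0.15 on the log2 scale (SE; edgeR adjusted p = 0.00828). It lost its call without day 3 library 12 or 1 of the untreated libraries. SLC7A11 changed by -2.25 ± 0.51 (SE; edgeR adjusted p = 0.0108), and it again passed the filter only through the untreated libraries. SLC1A4 and SLC6A9 were also lower in every day 3 library than in any untreated one but did not pass the test (log2 changes -0.79 and -0.43, edgeR adjusted p = 0.117 and 0.0758). In the other direction, SLC6A6 and SLC6A8 were higher in every day 3 library and did not pass either (0.37 and 0.36, edgeR adjusted p = 0.164 and 0.222). The untested SLC6A15, SLC7A4 and SLC7A14 were lower in every day 3 library, on few UMIs. The share of all genes without overlap was not counted.

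**Figure D4:**
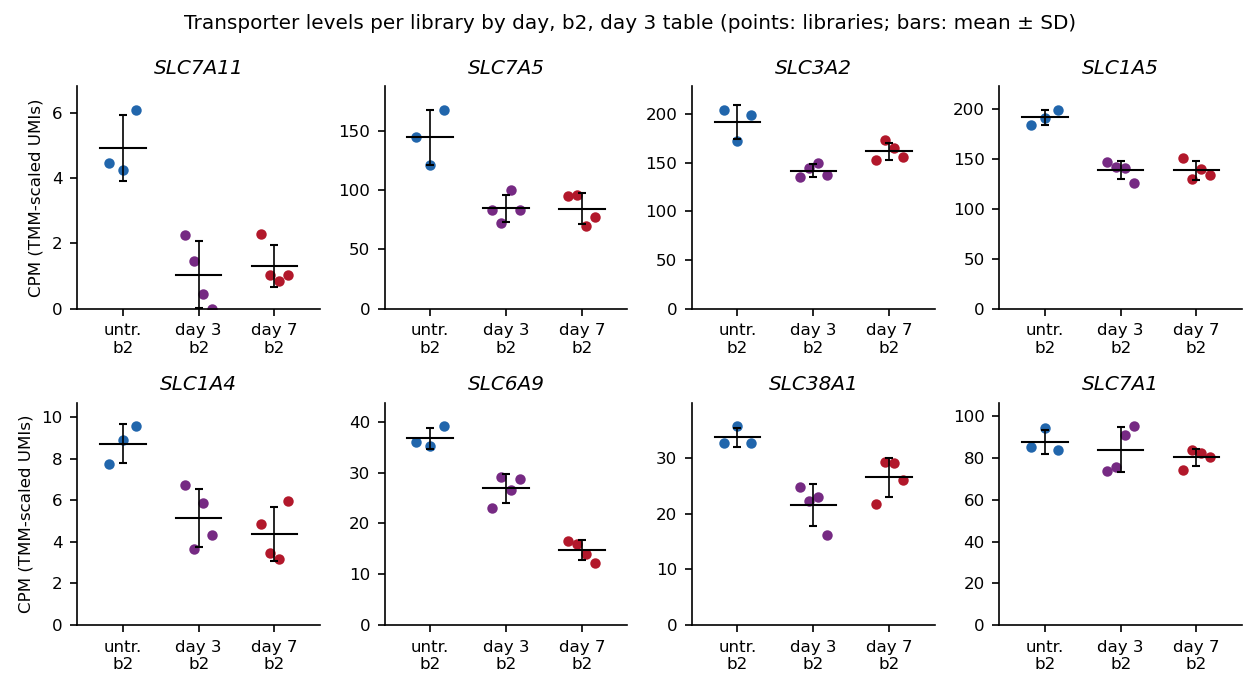
CPM per b2 library in the day 3 table for 8 transporter genes, with 1 point per library and black bars for mean ± SD, for untreated (3), day 3 (4) and day 7 (4). SLC6A9 stands lower at day 3 than untreated and lower still at day 7, whereas SLC7A5, SLC1A5 and SLC7A11 are about as low at day 3 as at day 7.

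Tested directly, day 7 differed from day 3 in 1 of 22 members. SLC6A9 had 35.99, 35.2 and 39.1 CPM untreated, 23.1, 29.2, 26.6 and 28.8 CPM at day 3 and 16.6, 16.0, 14.0 and 12.2 CPM at day 7, and the day 3 and day 7 libraries did not overlap. Its log2 change between them, day 7 over day 3, was -0.90 ± 0.14 (SE; edgeR adjusted p = 9.3e-05), and it was called in all 17 alternative settings. That is 4.55% of the tested members, where 2.31% of all genes were lower and 2.76% higher. Of the members 0 were higher by edgeR, DESeq2 or limma-voom, with 3 at an unadjusted p under 0.05. For SLC1A5 the log2 difference was 0.000297 ± 0.07 and for SLC7A5 -0.01 ± 0.13 (SE; edgeR adjusted p = 0.999 and 0.983). SLC3A2 was higher in every day 7 library than in any day 3 library, with a log2 difference of 0.19 ± 0.07 that did not pass (SE; edgeR adjusted p = 0.147).

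The day 7 effect differed between the tags for SLC1A5, SLC6A9 and SLC3A2. edgeR's test of the difference called these 3 of 31 members with a lower effect in b2 (9.68%, where 1.02% of all genes had a lower effect in b2) and 0 with a higher one (where 1.42% of all genes did). DESeq2 and limma-voom also called 0 members with a higher effect in b2, and 1 was higher at an unadjusted p under 0.05. Scaled by library size alone, 272 genes had a higher and 100 a lower effect in b2, against 190 and 136 with the scaling used here. The test rests on the single day 7 library of b1, which is assumed to vary like the others. SLC1A5 had 122, 105, 111 and 110.0 CPM in day 7 b2, against 148, 153 and 159.6 CPM in untreated b2, and 134 CPM in day 7 b1, against 108, 111 and 106 CPM in untreated b1. SLC3A2 had 128, 141, 136 and 134 CPM in day 7 b2, against 166, 141 and 163 CPM in untreated b2, and 191 CPM in day 7 b1, against 153, 167 and 134 CPM in untreated b1. For both genes the single day 7 b1 library lay above the untreated b1 ones, and in b2 the SLC1A5 libraries were all lower at day 7. That b1 library had the lowest scaling factor of all (0.911), and the log2 changes within b1 were 0.31 for SLC1A5 and 0.34 for SLC3A2. From 1 library a rise in b1 is not shown, and the share of all genes without overlap there was not counted. The log2 difference of the effects was -0.76 ± 0.14 for SLC1A5, -1.55 ± 0.28 for SLC6A9 and -0.56 ± 0.15 for SLC3A2 (SE; edgeR adjusted p = 0.00247, 0.00191 and 0.0447). The SLC3A2 call was lost in 11 of 17 alternatives, DESeq2 and limma-voom among them. It was lost without day 7 b2 libraries 18, 19 or 20, untreated b2 libraries 1 or 4 or untreated b1 libraries 1 or 3. Without day 7 b2 library 17 the count of members called was 5.

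Within b2, edgeR called 3 of 31 members higher at day 7 (where 7.37% of all genes were higher) and 7 lower (22.6%, where 6.94% of all genes were lower). The 7 were SLC6A9 (log2 change -1.31), SLC1A5 (-0.45), SLC7A5 (-0.74), SLC1A4 (-0.92), SLC7A11 (-1.88), SLC7A4 (-2.15) and SLC38A1 (-0.34). SLC7A11 among them passed the filter only through the untreated b2 libraries, where it was high. The SLC38A1 call was lost when the b2 libraries were fitted alone (edgeR adjusted p = 0.0765). SLC7A5 had 78.0, 80.4, 56.4 and 63.3 CPM in day 7 b2, against 114, 97.2 and 137 CPM in untreated b2, and 99.2 CPM in day 7 b1, against 92.5, 91.5 and 95.8 CPM in untreated b1. In these CPM day 7 was below untreated in b2, and the single day 7 b1 library stood slightly above untreated b1. The scaling factor of that library, 0.911, was the lowest of all, and the log2 change within b1 was only 0.09. An opposite direction of SLC7A5 between the tags is thus not shown. SLC7A5 missed the threshold over both tags (-0.49 ± 0.16, SE, edgeR adjusted p = 0.0576), as did the difference between the tags (-0.82). SLC7A4, an orphan of the cationic branch, had 0, 0.579, 0.351 and 0.891 CPM in day 7 b2, against 1.69, 1.46 and 3.95 CPM in untreated b2, on 0 to 4 UMIs in day 7 b2 and 7 to 11 in untreated b2, and it passed the filter through 3 libraries alone. Within b1, where day 7 is 1 library assumed to vary like the other groups, edgeR called 1 of 31 higher and 1 lower (3.23% each, where 3.56% of all genes were higher and 3.38% lower), which is near the share over all genes. They were SLC43A2 (LAT4), a neutral amino acid carrier (log2 change 1.57, on 27 UMIs in the day 7 library and 9 to 18 untreated), and SLC38A1 (-0.87).

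**Figure D5:**
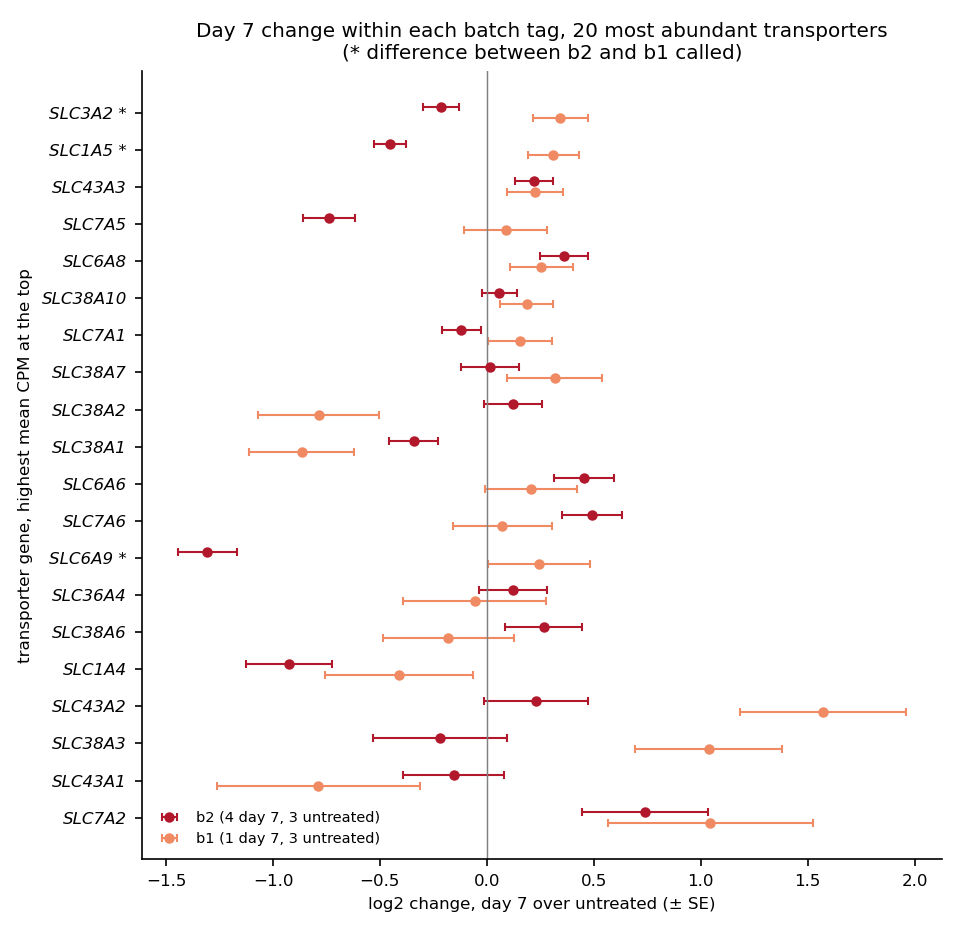
Log2 change, day 7 over untreated, within b2 (4 day 7 and 3 untreated libraries) and within b1 (1 day 7 and 3 untreated libraries) for the 20 most abundant transporter genes, with bars of ± 1 SE. Asterisks mark SLC3A2, SLC1A5 and SLC6A9, whose change is below 0 in b2 and above 0 in b1.

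Between untreated libraries the tags differed in 14 of 31 members. edgeR called 7 of 31 members higher in untreated b2 than in untreated b1 (22.6%, where 22.5% of all genes were higher) and 7 lower (22.6%, where 21.8% of all genes were lower), which is near the share over all genes. SLC7A11 (log2 difference 1.94 ± 0.49), SLC6A9 (0.88 ± 0.15), SLC36A4 (0.87 ± 0.19), SLC38A1 (0.66 ± 0.13), SLC1A5 (0.50 ± 0.08), SLC38A2 (0.47 ± 0.15) and SLC7A1 (0.31 ± 0.10) were higher in untreated b2 (SE; edgeR adjusted p at most 0.0155). Of these, SLC38A2 (SNAT2), a sodium-coupled carrier, lost its call without untreated b1 libraries 1 or 2 or untreated b2 libraries 1 or 4, and SLC7A1 without untreated b1 library 1 or untreated b2 library 2. SLC6A17 (-2.60 ± 0.70), SLC1A1 (-2.55 ± 0.76), SLC6A8 (-1.61 ± 0.11), SLC38A3 (-1.10 ± 0.29), SLC6A6 (-0.60 ± 0.15), SLC43A3 (-0.55 ± 0.09) and SLC38A10 (-0.52 ± 0.09) were lower in untreated b2 (SE; edgeR adjusted p at most 0.00808). SLC6A17 and SLC1A1 passed the filter through untreated b1 libraries alone, 2 for SLC6A17 and 1 for SLC1A1. SLC7A11 passed it through the 3 untreated b2 libraries alone. Each of these 3 genes could thus be tested only because it was high in the group where it is called higher.

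Levels at day 7 were then set beside these differences. SLC36A4, an amino acid carrier of the proton-coupled family, had 22.6, 18.8, 27.2 and 22.7 CPM in day 7 b2, against 23.0, 23.0 and 16.5 CPM in untreated b2, and 11.1 CPM in day 7 b1, against 8.52, 12.0 and 14.1 CPM in untreated b1. SLC38A2 had 36.05, 43.7, 52.4 and 44.5 CPM in day 7 b2, against 47.4, 32.8 and 44.1 CPM in untreated b2, and 17.1 CPM in day 7 b1, against 26.0, 28.3 and 33.5 CPM in untreated b1. SLC7A1 had 60.8, 68.9, 67.7 and 68.4 CPM in day 7 b2, against 69.4, 77.2 and 69.2 CPM in untreated b2, and 64.7 CPM in day 7 b1, against 54.0, 60.9 and 60.0 CPM in untreated b1. None of the 3 was called at day 7, and in b2 only SLC7A1 had all day 7 libraries below all untreated ones, by little. SLC38A3 (SNAT3), a glutamine carrier, had 2.42, 3.47, 2.10 and 2.67 CPM in day 7 b2, against 2.18, 3.83 and 2.87 CPM in untreated b2, and 13.5 CPM in day 7 b1, against 6.82, 7.75 and 5.52 CPM in untreated b1. SLC43A3 had 126, 107, 101 and 102 CPM in day 7 b2, against 87.8, 97.6 and 94.3 CPM in untreated b2, and 159 CPM in day 7 b1, against 140.5, 136 and 132 CPM in untreated b1. SLC38A10 had 74.2, 70.0, 72.6 and 72.4 CPM in day 7 b2, against 66.5, 71.7 and 70.3 CPM in untreated b2, and 113 CPM in day 7 b1, against 100.3, 96.5 and 101 CPM in untreated b1. For SLC38A3, SLC43A3 and SLC38A10 each b1 library was above every b2 library. SLC6A17, a neuronal vesicular carrier, had 0.807, 0.579, 0.175 and 2.00 CPM in day 7 b2, against 0.725, 0.365 and 0 CPM in untreated b2, and 1.98 CPM in day 7 b1, against 2.68, 2.71 and 2.43 CPM in untreated b1. SLC1A1 (EAAC1), a glutamate and cysteine transporter, had 2.42, 0.579, 0.526 and 0.223 CPM in day 7 b2, against 0.242, 0.547 and 0.359 CPM in untreated b2, and 1.19 CPM in day 7 b1, against 1.95, 0.775 and 4.19 CPM in untreated b1. Their untreated b2 libraries, with 0 to 3 UMIs each, were below all untreated b1 libraries.

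In all, 20 members were called in at least 1 of the 5 comparisons and 11 tested members in none (64.5% called, where 49.5% of all 14148 tested genes were called in at least 1). Among the 20 are SLC7A11, SLC7A8, SLC1A1 and SLC6A17, which passed the filter of the day 7 table only through a group where they were high. Of the 10 most abundant members, SLC38A7 alone was not called in any of them, with 54.9, 46.0, 46.3 and 34.5 CPM in day 7 b2, against 44.5, 44.0 and 46.3 CPM in untreated b2, and 48.4 CPM in day 7 b1, against 39.7, 47.3 and 31.8 CPM in untreated b1. Its day 7 and untreated b2 values overlapped, and its log2 change was 0.10 ± 0.12 (SE; edgeR adjusted p = 0.645). The 5 are day 7 and day 3 against untreated, day 7 against day 3, untreated b2 against untreated b1 and the difference between the tags. The other 10 not called in these 5 were SLC1A3, SLC6A15, SLC6A16, SLC7A4, SLC36A1, SLC38A5, SLC38A6, SLC38A9, SLC43A1 and SLC43A2, with log2 changes at day 7 of -1.33 for SLC7A4 to 0.80 for SLC38A9. Of these, SLC7A4 and SLC43A2 were called within 1 tag, as given above. SLC38A9, the lysosomal arginine sensor, had 9 UMIs in the day 7 b1 library, through which alone it passed the filter, 1 to 3 in each b2 library and 2 to 8 in each untreated b1 library.

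Other genes of amino acid supply were counted beside the transporters. Of 31 tested genes of the amino acid response, none of them a transporter counted above, 16 were lower and 0 higher at day 7 by edgeR (where 6.48% of all genes were lower and 8.14% higher), with DESeq2 at 14 lower and limma-voom at 18 lower, each with 0 higher, and 1 higher at an unadjusted p under 0.05. NUPR1, a stress-response regulator, changed by -2.29 ± 0.25 and GARS1, the glycyl-tRNA synthetase, by -0.67 ± 0.07 on the log2 scale (SE; edgeR adjusted p = 1.5e-06 and 1.0e-06). At day 3 14 of 28 were lower and 0 higher, by edgeR, DESeq2 and limma-voom alike, with 0 higher at an unadjusted p under 0.05. ASNS, asparagine synthetase, changed there by -1.86 ± 0.10 and PSAT1, of serine synthesis, by -1.66 ± 0.09 (SE; edgeR adjusted p = 5.6e-14 each). The list's median log2 change was -0.41 at day 7 and -0.52 at day 3, where that of all genes was -0.02 and 0.00497. Within b2 20 of 31 were lower at day 7 (where 6.94% of all genes were lower), with a median log2 change of -0.53. Within b1, with 1 day 7 library, the list's median log2 change was -0.02. For the difference between the tags edgeR called 7 of 31 with a lower effect in b2, led by PSAT1 (-1.64 ± 0.19, SE; edgeR adjusted p = 8.0e-06). In untreated cells 16 of the 31 were higher in b2 than in b1 and 5 lower (where 22.5% of all genes were higher and 21.8% lower). The list holds known direct and indirect targets chosen with earlier results of these data known, and is no independent evidence of its direction.

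Of 14 tested genes of glutathione synthesis and cystine use, CHAC1, which degrades glutathione, was lower at day 7 (log2 change -0.57 ± 0.16, SE; edgeR adjusted p = 0.015) and 0 were higher, with 4 higher at an unadjusted p under 0.05, 1 higher by DESeq2 and 0 by limma-voom. Over both tags 8.14% of all genes were higher and 6.48% lower. Within b2 edgeR called 2 of the 14 higher and 2 lower (where 7.37% of all genes were higher and 6.94% lower). Within b1, with 1 day 7 library, the list's median log2 change was -0.13. The next by p over both tags, TXNRD1, a thioredoxin reductase, missed the threshold (0.21 ± 0.08, SE; edgeR adjusted p = 0.0581). At day 3 0 of 13 were called by edgeR, DESeq2 or limma-voom, with 1 at an unadjusted p under 0.05. Of 27 genes of lysosomal amino acid sensing and mTORC1, edgeR, DESeq2 and limma-voom called 0 at day 7, with 7 at an unadjusted p under 0.05 (5 higher and 2 lower). Within b2 edgeR and DESeq2 called 2 of the 27 higher and 0 lower and limma-voom 2 higher and 1 lower. By edgeR 7.37% of all genes were higher there and 6.94% lower, so the 2 higher are near the share over all genes. Within b1, with 1 day 7 library, the list's median log2 change was 0.06. MLST8, a subunit of mTORC1, and WDR59, of the GATOR2 complex, had the smallest p over both tags (log2 changes 0.24 and -0.62; edgeR adjusted p = 0.0595 and 0.0646). At day 3 the 3 tools called 0 of 24, with 2 higher and 2 lower at an unadjusted p under 0.05. Of 22 other amino acid carriers 3 were higher and 1 lower at day 7, where 8.14% of all genes were higher and 6.48% lower, so these counts are near the share over all genes. Within b2 edgeR also called 3 higher and 1 lower (where 7.37% of all genes were higher and 6.94% lower). Within b1, with 1 day 7 library, their median log2 change was 0.09. SLC25A22, a mitochondrial glutamate carrier, changed by 0.58 ± 0.13 and MFSD12, a lysosomal cysteine carrier, by 0.31 ± 0.08 (SE; edgeR adjusted p = 0.00516 and 0.00987). For these carriers at day 3 the tools called 0 of 21, with 4 higher at an unadjusted p under 0.05.

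The 2 tables do not give the same counts for the libraries they share, and some members differ much. Of 23 members with at least 100 UMIs in the shared b2 libraries of the day 7 table, 7 (30.4%) had under 2/3 of those UMIs in the day 3 table, where 25.3% of 9841 genes did. SLC43A2 had 14.5%, SLC36A4 16.6%, SLC38A7 31.6%, SLC6A16 36.6%, SLC6A8 39.7%, SLC38A1 65.8% and SLC1A4 66.5% of their day 7 table UMIs there. SLC1A5 (103%), SLC3A2 (100%), SLC7A5 (102%) and SLC6A9 (101%) were counted nearly alike in both. With the b2 counts of the day 3 table, SLC6A9 (log2 change -1.33), SLC1A5 (-0.47), SLC7A5 (-0.77), SLC7A11 (-1.90), SLC1A4 (-0.99) and SLC3A2 (-0.24) were called lower at day 7 by edgeR (6 of 22, where 7.31% of all genes were lower). SLC7A6 (0.54) and SLC6A6 (0.39) were called higher (where 8.27% of all genes were higher). SLC6A8 (0.25) and SLC7A2 (0.63) then missed the threshold (edgeR adjusted p = 0.274 and 0.124).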

How the data were processed

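The deposited tables hold UMI counts per gene, 1 for day 7 against untreated and 1 with day 3, made by the authors from bulk MARS-seq libraries. Per the submitters' processing notes the tools were bcl2fastq, cutadapt, STAR 2.4.2a, HTSeq and DESeq2, with build hg38; the sources used here do not say whether counting used strand. The raw columns were used, and 55 other per-sample columns, normalized, rlog or ComBat by their headers, were not. Because the tables differ in their counts for the libraries they share, each was fitted by itself. In the day 3 table the columns of 2 untreated b2 libraries show their group and not which library they are.

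Genes were kept by filterByExpr by group (edgeR 4.0.16, R 4.3.3), scaled by TMM and tested with robust quasi-likelihood fits over all groups of a table, with the tag as a term for day 7 against untreated, the interaction for the difference between tags, and Benjamini-Hochberg adjustment over all genes tested, at 0.05. CPM are TMM-scaled, and the error beside a log2 change is its SE. The alternatives were DESeq2 1.42.0, limma-voom 3.58.1, other scalings and filters, no tag term, b2 alone, the other table's counts, each library left out, and, added after seeing the data, a filter by the design matrix. Scripts were tested on simulated data. Replicate pairs differed by more than sampling noise (chi-square over degrees of freedom at least 1.59 in 27 pairs), so none was merged.

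The named genes are the members called in a comparison, the 10 most abundant, SLC1A3 and, for the other lists, the 2 genes with the smallest p at day 7 and, where called, at day 3; SLC43A2, SLC7A4, SLC38A9 and the gaps between tables were described after their values were seen. The members and lists were chosen with earlier results of these data known. Positions are those of GENCODE 29 on GRCh38, with 33 of 33 genes matched, and promoters those of RefSeq on GRCh38.p14. Figures were drawn with matplotlib 3.10.9. Some items are not reported here.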

Additional observations from a re-analysis of the deposited data

Results flagged for a closer look

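In 5 of 75 groups of 4 libraries checked, 1 library stood far from the other 3, and chance gives about 1 in 20. Day 7 b2 library 17 had SLC1A1 at 2.42 CPM, against 0.223 to 0.579 CPM in the other day 7 b2 libraries, SLC7A1 at 60.8 CPM, against 67.7 to 68.9 CPM, and SLC7A11 in the day 3 table at 2.27 CPM, against 0.849 to 1.04 CPM. Day 7 b2 library 18 had SLC1A4 at 4.05 CPM, against 5.78 to 6.01 CPM, and SLC7A6 at 18.2 CPM, against 23.2 to 23.8 CPM.

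The test of the difference of the day 7 effect, b2 minus b1, passed for SLC6A9 (-1.55 on the log2 scale), SLC1A5 (-0.76) and SLC3A2 (-0.56). Within b2 their changes were -1.31, -0.45 and -0.21, and within b1, from 1 day 7 library, 0.24, 0.31 and 0.34. The part of the single b1 library in this was not tested.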

How the results depend on the processing

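The 20 called members gave 32 calls, each of 1 gene in 1 comparison. Recomputed under at most 21 alternative settings each, these calls gave 606 results. The call was kept in 551 of them, lost in 54 and reversed in 1: SLC6A8 at day 7 had a log2 change of -0.22 when the tag was left out of the model. That same alternative gave 2 called members at day 7 in place of 9; the tags differ in untreated cells, and the cause was not tested. Leaving out each library gave 5 to 9 called members at day 7, 4 to 6 at day 3, 1 for day 7 over day 3, 12 to 15 for untreated b2 over untreated b1 and 2 to 5 for the difference between the tags. That difference could not be estimated without the single day 7 b1 library. Within b2, DESeq2 called 4 members at day 7, limma-voom 9 and edgeR 10. Replicate numbers 1 and 2 are shared by untreated b2 and b1; same-numbered libraries did not deviate together (r = -0.0136 and -0.00241), and a fit with the replicate block called 13 members, as did the same 4 libraries without it. For the day comparisons no paired analysis was possible because the groups share no numbers. SLC7A11, SLC7A8, SLC7A4, SLC1A1 and SLC6A17, with at most 21 UMIs in any library, are limited by depth.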

Other observations

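Genes that share sequence or position with a member had the following UMIs. SLC7A6OS, opposite the 3′ end of SLC7A6, had 40 to 91 UMIs in day 7 b2, against 36 to 74 in untreated b2, and 29 in day 7 b1, against 45 to 67 in untreated b1. SLC7A5P2, in the day 3 table, had 9 to 14 UMIs untreated, 8 to 18 at day 3 and 7 to 20 at day 7. The ranges overlapped between the groups except for SLC7A6OS in b1, where the day 7 library was lower.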
